A study of Mus musculus with 2 samples.

Results

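The 28 genes described here, of 26078 in the count tables, belong to opposite sides of cell sterol control. They were chosen by gene symbol as a fixed list, and all 28 symbols were found in the tables of both samples. Of these, 17 encode enzymes of cholesterol synthesis together with the sensors and carriers that regulate it, and 11 encode LXR, its targets and related genes of efflux, desaturation and ester storage.

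Cells make cholesterol from acetyl-CoA by way of mevalonate, squalene and lanosterol. When sterol in the endoplasmic reticulum is low, the escort protein SCAP carries SREBP2 to the Golgi, where it is cut to a transcription factor that switches on synthesis and lipoprotein uptake, while INSIG proteins hold the complex back when sterol is plentiful. When sterol is plentiful, oxysterols and some late sterol intermediates activate the nuclear receptor LXR, which switches on export pumps, the destruction of lipoprotein receptors and fatty acid synthesis. Macrophages that take up whole cells, such as the Kupffer cells of the liver that clear old red cells, take in membrane cholesterol and use both arms.

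The material was liver macrophages of 2 C57BL/6J mice aged 7 to 10 weeks, 1 in the saline group and 1 in the Ter119 group. Ter119 is an antibody against an antigen on red cells, of which the treated mouse had 1 dose of 35 ug followed by 10 doses of 10 ug, one a day. Livers were collected 24 after the last injection, with the unit of that time not stated, and cells positive for F4/80 and CD11b were enriched with magnetic beads, tagged with hashtag antibodies, pooled and sequenced by droplet-based counting of 3' transcript ends. The comparison asks how sterol genes stood in liver cells after repeated injection of an antibody against red cells. With 1 mouse and 1 library in each group, the treatment cannot be told apart from the mouse or its library, no test over mice could be made, and each 95% interval below covers counting error only.

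The libraries held 97181787 unique molecular identifiers (UMIs, counted transcripts) in 18354 saline barcodes and 61892074 in 25760 Ter119 barcodes, and 11572 and 13846 cells passed the filters. Cells were assigned to classes by marker genes, and 9684 saline and 7284 Ter119 cells, 83.7% and 52.6% of those kept, were Kupffer-like, with medians of 6769.5 and 3651.5 UMIs. The 11 Kupffer markers summed to 38480 CPM (counts per 1000000 UMIs of the class) in the saline and 22250 CPM in the Ter119 Kupffer-like cells, with none at 0. In Ter119, 1387 cells lay near the marker limit, at 75 to 125 marker UMIs per 10000, against 274 in saline. A further 1461 Ter119 cells and 1 saline cell had Kupffer markers and at least 20% hemoglobin UMIs and are given apart. The 2 libraries share 133 barcode sequences, 66 of them in saline and 34 in Ter119 Kupffer-like cells, and leaving these out gave the same group medians.

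Promoter sequences from RefSeq (GRCm38.p6, 250 bases before to 50 after the start) were matched for 21 of the 28 genes, 13 of the synthesis and 8 of the LXR group, and are shown first because SREBP2 and LXR act by binding DNA near their target genes. Sqle, Fdft1, Fdps, Stard4, Abcg1, Scd1 and Scd2 had no entry. The sequences below are the 250 bases before the start, read 5′ to 3′ on the gene's strand, for 4 synthesis genes and for the 2 genes with an LXR-type match. Capitals mark matches on either strand to the sterol response core TCACNCCAC of SREBP, to CCAAT, the word of its partner NF-Y, which reads ATTGG on the other strand, or to the relaxed LXR repeat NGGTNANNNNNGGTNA.
Hmgcs1, chr13:119690101-119690350, plus strand: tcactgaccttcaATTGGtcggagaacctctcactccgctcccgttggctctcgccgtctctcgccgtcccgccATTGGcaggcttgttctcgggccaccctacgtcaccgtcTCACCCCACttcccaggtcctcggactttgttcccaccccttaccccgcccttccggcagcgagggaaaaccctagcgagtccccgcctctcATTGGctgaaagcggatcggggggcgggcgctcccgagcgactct
Mvd, chr8:122443423-122443672, minus strand: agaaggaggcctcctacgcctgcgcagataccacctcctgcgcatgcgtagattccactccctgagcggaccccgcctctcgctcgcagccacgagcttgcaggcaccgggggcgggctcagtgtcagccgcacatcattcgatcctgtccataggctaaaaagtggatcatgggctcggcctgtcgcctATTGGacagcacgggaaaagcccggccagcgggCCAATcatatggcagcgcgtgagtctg
Cyp51, chr5:4104698-4104947, minus strand: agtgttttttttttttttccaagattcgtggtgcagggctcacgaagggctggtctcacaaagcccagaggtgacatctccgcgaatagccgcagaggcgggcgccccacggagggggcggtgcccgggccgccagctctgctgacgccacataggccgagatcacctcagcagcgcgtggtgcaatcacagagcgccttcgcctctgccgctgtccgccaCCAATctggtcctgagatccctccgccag
Msmo1, chr8:64733579-64733828, minus strand: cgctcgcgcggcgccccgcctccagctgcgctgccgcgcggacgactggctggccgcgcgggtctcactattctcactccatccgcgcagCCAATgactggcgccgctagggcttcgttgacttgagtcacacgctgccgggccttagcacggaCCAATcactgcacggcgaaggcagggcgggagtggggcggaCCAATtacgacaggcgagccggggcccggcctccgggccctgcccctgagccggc
Abca1, chr4:53159896-53160145, minus strand: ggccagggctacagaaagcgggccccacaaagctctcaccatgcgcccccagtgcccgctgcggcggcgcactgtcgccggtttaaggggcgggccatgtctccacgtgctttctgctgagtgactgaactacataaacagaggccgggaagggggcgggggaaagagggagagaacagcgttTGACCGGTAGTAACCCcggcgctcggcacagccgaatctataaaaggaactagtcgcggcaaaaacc
Srebf1, window 3 of 3, chr11:60210472-60210721, minus strand: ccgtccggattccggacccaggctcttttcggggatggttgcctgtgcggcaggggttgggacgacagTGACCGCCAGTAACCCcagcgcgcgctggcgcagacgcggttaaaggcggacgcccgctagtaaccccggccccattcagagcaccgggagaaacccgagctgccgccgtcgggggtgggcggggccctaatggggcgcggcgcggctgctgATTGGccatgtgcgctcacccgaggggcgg

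The sterol response core occurred in 1.24% of all 32851 promoter windows in the table, or 1.44% of genes with a window. It was found in 1 of these 21 genes, Hmgcs1, where it begins 137 bases before the start. The relaxed LXR repeat occurred in 0.718% of windows, or 0.818% of genes with a window. Here it was found in Abca1, beginning 67 bases before the start, and Srebf1, 182 bases before it. No match in the printed sequences overlaps another. CCAAT is common, at 41.1% of genes with a window, and was found in the window of 12 of the 13 synthesis genes, Scap being the exception, and of 5 of the 8 LXR genes. These are matches of letters in a short window, and the words were chosen after the expression values were known.

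In Kupffer-like cells, 16 of the 17 synthesis and feedback genes had a higher level in the Ter119 sample than in saline, and 7 of them were at least 2-fold higher. Of all 7887 genes with a mean of at least 10 CPM, 30.6% had a ratio above 1 and 3.32% were at least 2-fold higher, and of the 11 synthesis genes with that mean 4 were. The 17 genes summed to 272 CPM with saline and 444 with Ter119, and their median log2 ratio was 0.80, against -0.25 for all genes. The gene in the middle, Insig1, stood 1.74-fold higher. Of the 11 LXR and efflux genes, 3 had a ratio above 1, close to the 30.6% of all genes, and 8 stood lower. Of the 11, 1 was at least 2-fold lower, where 8.48% of all genes were. The 11 genes summed to 2541 CPM in saline and 1703 in Ter119. Their median log2 ratio was -0.43, or -0.18 relative to the median of all genes.

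**Figure D1:**
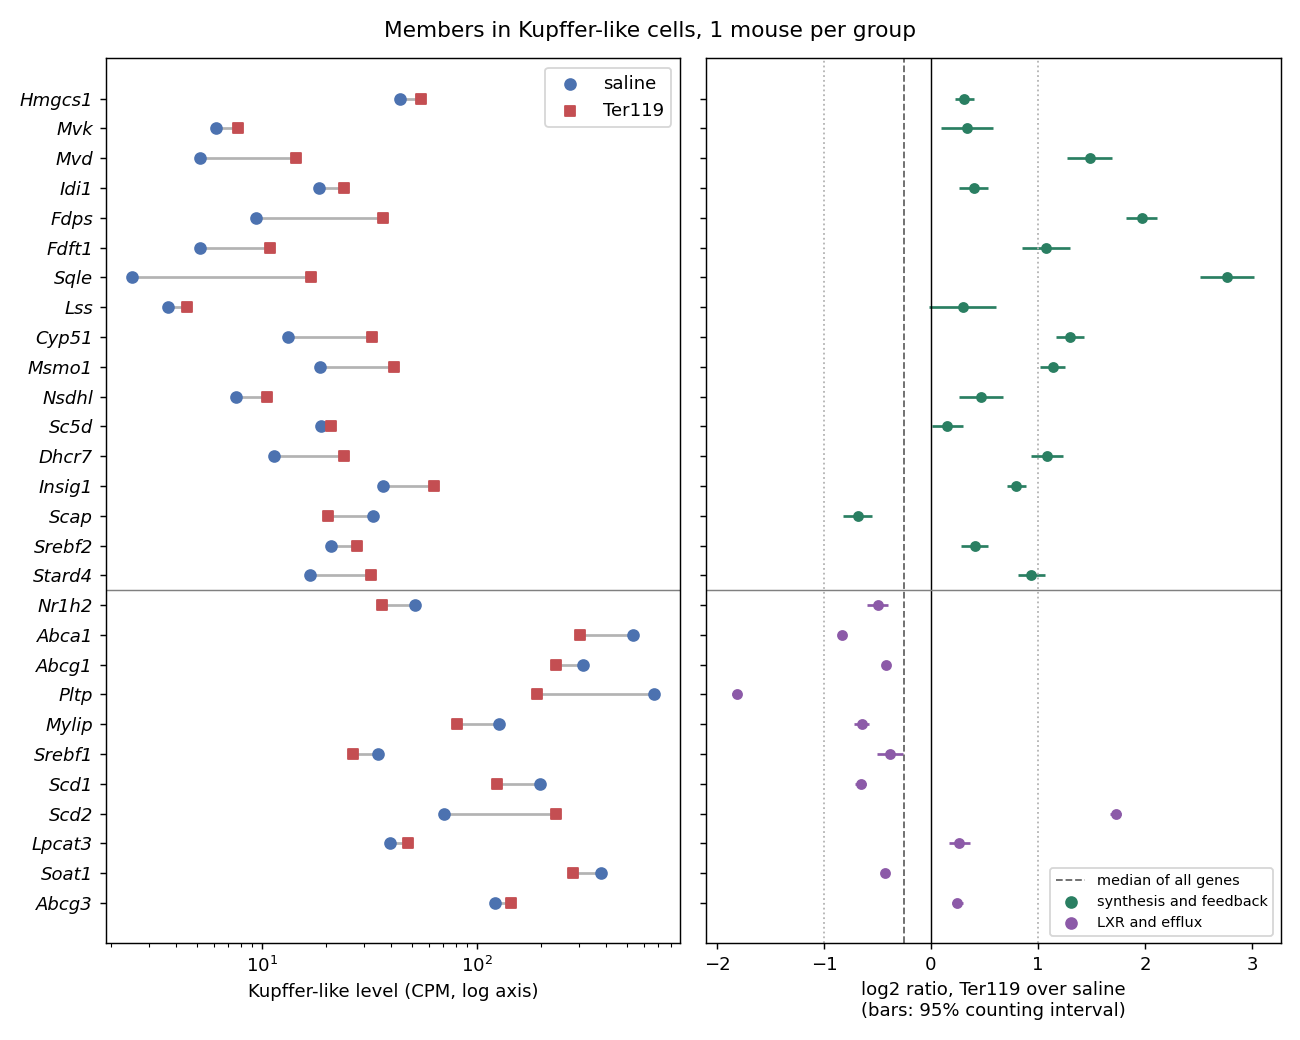
Level of each of the 28 genes in Kupffer-like cells of the saline sample (blue circles) and the Ter119 sample (red squares) on a log axis in CPM, left, and the log2 ratio of Ter119 over saline with its 95% counting interval, right. Among the 17 genes above the line, Scap alone lies to the left of 0, and below it Scd2, Lpcat3 and Abcg3 lie to the right.

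Within the synthesis group the ratio varied from step to step. Hmgcs1, which makes HMG-CoA, the substrate of the committed step, was at 44.2 CPM with saline and 54.9 with Ter119, a ratio of 1.24 (95% interval 1.17 to 1.32). Mvk, the mevalonate kinase, was at 6.14 and 7.78 CPM (ratio 1.27, 1.07 to 1.49). For Mvd, which turns mevalonate diphosphate into the isoprenoid building block, levels were 5.19 and 14.5 CPM (ratio 2.79, 2.42 to 3.23). Mvd had a larger ratio than Mvk, and their intervals do not meet. Idi1, the isomerase that follows, was at 18.4 and 24.3 CPM (ratio 1.32, 1.20 to 1.45). Fdps, which joins the units to farnesyl diphosphate, the branch point to sterols and to protein prenylation, was at 9.37 CPM from 677 UMIs in saline and at 36.7 CPM from 1004 UMIs in Ter119. Its ratio of 3.91 (3.55 to 4.32) was the second largest of the 28 genes, and more Fdps molecules were counted in the Ter119 cells although they held fewer UMIs in all.

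The steps from farnesyl diphosphate to lanosterol were led by Sqle. Fdft1, squalene synthase, was at 5.19 and 10.95 CPM (ratio 2.11, 1.81 to 2.46). Sqle, squalene epoxidase and a rate-limiting enzyme of the pathway, was at 2.49 CPM from 180 UMIs in saline and at 16.9 CPM from 464 UMIs in Ter119. Its ratio of 6.80 (5.72 to 8.13) was the largest of the 28. Sqle lies on chromosome 15 (GRCm38, 59315077 to 59331192, plus strand). Lss, which closes the ring to lanosterol, was at 3.65 and 4.49 CPM, and its interval for the ratio of 1.23 (0.985 to 1.53) was the only one among the 28 genes that covered 1. A setting chosen after seeing the data kept cells with at most 10 hepatocyte marker UMIs per 10000. There the log2 ratio of Sqle was 3.72 against 2.77 in all Kupffer-like cells, and that of Lss 0.98 against 0.30. Those of Fdft1 and Idi1 were 1.56 against 1.08 and 0.84 against 0.40. Mvk, Nsdhl, Dhcr7 and Srebf2 had slightly smaller ratios in that setting, such as 0.30 against 0.34 for Mvk.

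After lanosterol, Cyp51, the demethylase that is its first modifying enzyme, was at 13.3 and 32.75 CPM (ratio 2.47, 2.25 to 2.70). Msmo1, the methylsterol oxidase, was at 18.7 and 41.1 CPM (ratio 2.20, 2.03 to 2.38). Both were a little over 2-fold higher, whereas Nsdhl, the dehydrogenase that acts on the product of Msmo1, was at 7.62 and 10.55 CPM (ratio 1.38, 1.20 to 1.60). Sc5d, the desaturase near the end of the pathway, was nearly level at 18.9 and 21.1 CPM (ratio 1.11, 1.01 to 1.23), and it was the only one of the 28 genes whose log2 ratio took the other sign (-0.18) in any of 11 alternative settings, that in which each cell was reduced to 1000 UMIs. Dhcr7, the last reductase, was at 11.4 and 24.25 CPM (ratio 2.12, 1.91 to 2.35). The 7 genes past 2-fold were Mvd, Fdps, Fdft1, Sqle, Cyp51, Msmo1 and Dhcr7, with Dhcr7, Fdft1 and Msmo1 just above that limit and the sterol carrier Stard4 just below it.

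Of the feedback genes, Insig1, the retention protein that is itself a target of SREBP2, was at 36.5 and 63.4 CPM (ratio 1.74, 1.63 to 1.85). Srebf2, which encodes SREBP2, was at 21.0 and 27.8 CPM (ratio 1.33, 1.21 to 1.45). Stard4, which moves cholesterol between membranes inside the cell, was at 16.9 and 32.35 CPM (ratio 1.92, 1.76 to 2.09). Scap went the other way from these partners. Its level was 32.8 CPM with saline and 20.45 with Ter119, a ratio of 0.623 (0.567 to 0.683), or -0.68 on the log2 scale, which is also below the median of all genes.

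On the LXR side, Nr1h2, which encodes LXR beta, was at 51.5 CPM with saline and 36.5 with Ter119 (ratio 0.708, 0.660 to 0.760). Abca1, the pump that loads cholesterol onto lipid-poor apolipoprotein A-I, was at 534 and 301 CPM from 38630 and 8253 UMIs (ratio 0.564, 0.551 to 0.5775). Abcg1, which exports sterol to HDL particles, was at 314 and 235 CPM (ratio 0.748, 0.727 to 0.769). Both pumps stood lower in Ter119, with Abca1 further below the median of all genes than Abcg1. Pltp, the secreted phospholipid transfer protein, was the furthest apart, at 669.5 CPM with saline and 190 with Ter119, 3.52 times lower (3.42 to 3.62). Mylip, the ubiquitin ligase that sends lipoprotein receptors to degradation when LXR is active, was at 127 and 81.2 CPM (ratio 0.638, 0.609 to 0.669). Soat1, which esterifies cholesterol for storage in droplets, was at 381 and 282 CPM (ratio 0.741, 0.722 to 0.760).

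The fatty acid genes of the LXR group split. Srebf1, the factor of fatty acid synthesis and a direct LXR target, was at 34.9 and 26.7 CPM (ratio 0.766, 0.705 to 0.832). Scd1 and Scd2 both encode stearoyl-CoA desaturases, which put the double bond into oleate, and lie near each other on chromosome 19 (GRCm38, 44394455 to 44407879 on the minus strand and 44293674 to 44306864 on the plus strand). Scd1 was at 196 CPM with saline and 124.5 with Ter119 (ratio 0.634, 0.611 to 0.658). Scd2 was at 70.5 CPM with saline and 233.5 with Ter119 (ratio 3.31, 3.19 to 3.43). The isoforms thus exchanged places as the more abundant desaturase transcript on this scale of counted 3' ends. For the authors' counting of reads shared by such close gene copies the rule is not given in the sources used. Among cells with at most 10 hepatocyte marker UMIs per 10000, the log2 ratio of Scd1 was -0.33, against -0.66 in all Kupffer-like cells. Relative to the median of all genes it was -0.09 there, against -0.41. That of Scd2 was 1.65 against 1.73. Lpcat3, which places polyunsaturated chains in phospholipids, was at 39.7 and 47.8 CPM (ratio 1.20, 1.13 to 1.285), and Abcg3, a transporter of the same subfamily as Abcg1, at 122 and 145 CPM (ratio 1.19, 1.14 to 1.23).

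The scale bears on the size of these ratios. The median gene stood at -0.25 log2 in CPM, at 0.00 after TMM scaling and at 0.02 with median-of-ratios factors, and of the genes past 2-fold 28.1% were higher in CPM, 51.3% after TMM scaling and 53.6% with median-of-ratios factors. All 28 genes kept their sign under both scalings. The median of the synthesis group was then 1.05 and 1.07, and that of the LXR group -0.18 and -0.16.

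Other RNA in these barcodes differed between the samples too. The 6 hepatocyte markers summed to 2224 CPM with saline and 349 with Ter119 Kupffer-like cells, with 6 of 6 higher in saline and none at 0, and hemoglobin and related erythroid markers to 117 and 44400 CPM. Among Kupffer-like cells with at most 10 hepatocyte marker UMIs per 10000, which left 1600 saline and 6545 Ter119 cells, the group medians were 0.98 and -0.45. With the hemoglobin-rich cells included they were 0.72 and -0.55. In the 1461 hemoglobin-rich Ter119 cells, on a CPM scale that leaves out hemoglobin UMIs, Fdps was at 35.7, Sqle at 16.3, Scd2 at 234, Pltp at 192 and Abca1 at 299, against 38.4, 17.7, 244, 199 and 315 in the other Ter119 Kupffer-like cells. The markers of cell division summed to 145 CPM with saline and 118 with Ter119, with 5 of 5 higher in saline. Their part in the ratios was not tested.

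Within the Ter119 Kupffer-like cells, the genes were compared between the 4584 cells with a UMI of Gpnmb, a gene known from lipid-loaded macrophages, and the 2700 without, whose median depths were 4208 and 2526.5 UMIs. The synthesis genes had a median log2 ratio of 0.00 with 8 of 17 above 0, and the LXR genes a median of 0.00 with 6 of 11 above. Fdps was at 37.3 CPM with and 35.2 CPM without Gpnmb, Sqle at 17.6 and 15.3, Scd2 at 234 and 233, Pltp at 193 and 184 and Abca1 at 302 and 300 CPM. A Gpnmb UMI is an uncertain mark of a cell: it was found in 62.9% of Ter119 Kupffer-like cells at a median of 3651.5 UMIs, but also in 12.2% of endothelial-like cells at 1416.5 UMIs and 12.4% of neutrophil-like cells at 1905 UMIs. Cells without one may still express the gene, since depth was lower in that set.

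Clusters built without the 28 genes sorted into 8 saline and 6 Ter119 Kupffer-like clusters. In 15 of the 17 synthesis genes and 8 of the 11 LXR genes the range over saline clusters overlapped that over Ter119 clusters. Fdps ranged from 7.965 to 13.3 CPM over saline clusters and from 15.5 to 60.4 CPM over Ter119 clusters, and Scd2 from 50.3 to 88.6 and from 112 to 255 CPM. For Pltp the ranges were 311 to 718 and 130 to 214 CPM, for Scd1 155.5 to 235.6 and 77.5 to 141 CPM, and for Scap 26.2 to 42.7 and 14.4 to 25.1 CPM. Of all 7887 genes, 3.18% had every Ter119 cluster above every saline cluster, as Fdps and Scd2 did, and 9.61% the reverse, as the other 3 did. No range was apart for Sqle, at 1.99 to 6.34 and 3.88 to 25.4 CPM, or Insig1, at 31.7 to 67.0 and 19.4 to 92.2 CPM. The range ends that meet rest on few UMIs. For Sqle they come from 8 UMIs in saline and 1 in Ter119, and for Insig1 from 11 and 5. The facing ends of ranges that are apart can rest on few UMIs as well. For Fdps they come from 36 UMIs in saline and 4 in Ter119, and for Scap from 82 and 51. The Ter119 end of Fdps is that of a cluster of 72 cells, of which 38.9% were gated as Kupffer-like. No counting interval was computed for cluster levels, so the gaps of Fdps and Scap are not settled. In the largest cluster of each sample Sqle was at 1.99 and 18.7 CPM and Insig1 at 32.4 and 69.2 CPM. Clusters of 1 sample share its library and are not replicates. Of these 14 Kupffer-like clusters, which leave out clusters rich in hemoglobin, the one with the most cell cycle transcripts in each sample had a synthesis sum of 274.5 CPM in saline, within the saline range of 240 to 299, and of 446 CPM in Ter119, within the Ter119 range of 295 to 547.

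**Figure D2:**
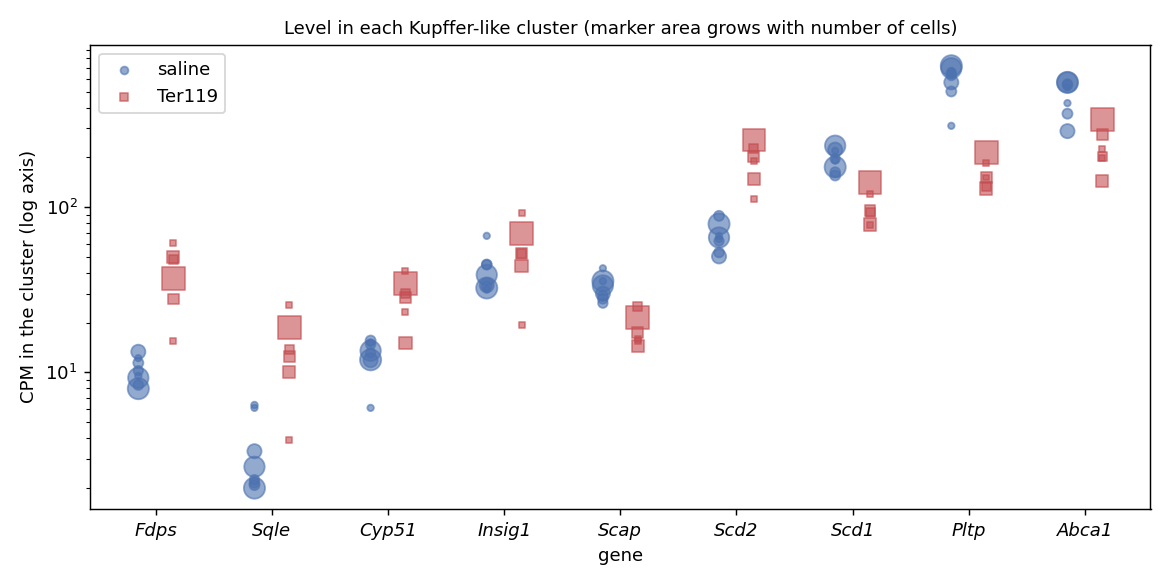
Level of 9 of the genes in each Kupffer-like cluster of the saline sample (blue circles) and the Ter119 sample (red squares), on a log axis in CPM, with marker area growing with the number of cells. Fdps and Scd2 lie higher and Scap, Scd1 and Pltp lower in all 6 Ter119 clusters than in any of the 8 saline clusters, whereas Insig1 spreads across both. The lowest Ter119 point of Fdps rests on 4 UMIs, and the facing points of Scap on 82 in saline and 51 in Ter119.

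Monocyte-like cells, 253 in saline and 733 in Ter119, had another pattern, at median depths of 7139 and 1744 UMIs. Their synthesis genes summed to 476 CPM with saline and 364 with Ter119, with a median log2 ratio of -0.26, against -0.09 for all 7618 genes. Of the 17 genes, 5 had a ratio above 1, where 40.6% of all genes did, 2 stood at least 2-fold higher (2.73% of all genes did) and 1 stood lower by that much (3.11% did). These shares are over genes with a mean of at least 10 CPM, a limit met by 13 of the 17, of which 2 had a ratio above 1, 1 was at least 2-fold higher and 1 lower. Idi1 was the lower one, at 50.1 CPM from 93 UMIs in saline and 17.8 CPM from 25 UMIs in Ter119 (ratio 0.355, 0.219 to 0.557). Msmo1 was at 53.9 and 27.7 CPM (ratio 0.515, 0.346 to 0.752), Hmgcs1 at 63.6 and 42.7 CPM (ratio 0.671, 0.4835 to 0.9235) and Cyp51 at 49.0 and 34.1 CPM (ratio 0.696, 0.480 to 0.998). Mvd stood higher here as well, at 9.16 and 22.8 CPM (ratio 2.485, 1.34 to 4.77), and the other was Lss, from 3 and 7 UMIs. Fdps was level at 43.1 and 42.0 CPM, and both levels have counting intervals that take in the 36.7 CPM of the Ter119 Kupffer-like cells.

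Dividing the Kupffer-like ratio by the monocyte-like ratio gave values above 1 with an interval above 1 for 12 of the 16 synthesis genes with at least 5 UMIs in each sum, and intervals covering 1 for 4, where the interval was above 1 in 9.99% of all genes and below 1 in 19.2%. For Sqle the quotient was 6.14 (3.35 to 11.2), for Msmo1 4.275 (2.93 to 6.24) and for Fdps 4.02 (2.83 to 5.71). The quotient for Mvd was 1.12 (0.614 to 2.06) and for Scap 0.849 (0.449 to 1.61), so no difference between the classes was detectable for these at this depth. Of the 11 LXR genes, 4 had an interval below 1, among them Pltp at 0.370 (0.2925 to 0.469) and Abca1 at 0.454 (0.343 to 0.600). The interval was above 1 for 1 gene, Scd2 at 2.165 (1.64 to 2.86), and covered 1 for 6. Fewer synthesis genes had such an interval above 1 against the other classes: 7 of 15 against endothelial-like cells (10.1% of all genes above and 22.4% below), 6 of 14 against dendritic-like cells (7.95% and 14.8%) and 4 of 8 against neutrophil-like cells (25.4% and 14.5%), and none had one below 1. The LXR genes gave 2 above and 3 below 1 against endothelial-like cells and 0 above and 3 below against dendritic-like cells, but 5 above and 1 below against neutrophil-like cells. In monocyte-like cells the LXR genes were nearly level, at 806 and 787 CPM with a median log2 ratio of 0.06, and 0 of 11 were past 2-fold in either direction. Abca1 there was at 54.95 and 68.3 CPM (ratio 1.24, 0.930 to 1.66).

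**Figure D3:**
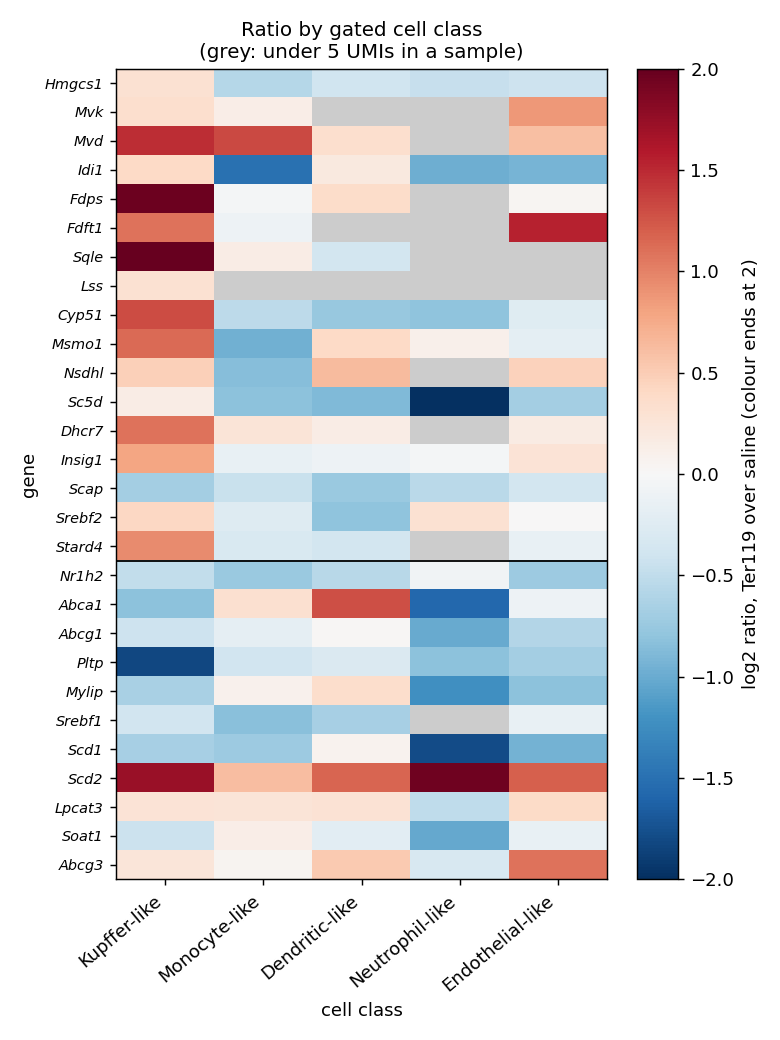
Log2 ratio of Ter119 over saline for each of the 28 genes (vertical axis) in 5 marker-gated cell classes (horizontal axis), red where the level was higher in Ter119, blue where lower and grey where a sample had under 5 UMIs. The red block of synthesis genes in the Kupffer-like column is blue or pale in the monocyte-like column except for Mvd, and Scd2 is red in all 5 columns.

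Endothelial-like cells, 587 in saline and 970 in Ter119, carry markers of the cells that line the sinusoids, and had median depths of 3751 and 1416.5 UMIs. Their synthesis genes summed to 352 and 324.5 CPM with a median log2 ratio of 0.01, against -0.12 for all 8754 genes, and 9 of 17 had a ratio above 1, where 38.7% of all genes did. Fdft1, at 4.88 and 14.2 CPM (ratio 2.905, 1.34 to 6.67), and Sqle, from 3 and 9 UMIs, were at least 2-fold higher, where 3.37% of all genes were, and Lss, from 6 and 1 UMIs, was at least 2-fold lower, where 4.35% were. All 3 are below the mean of 10 CPM that these shares require, and of the 9 synthesis genes that reach it 3 had a ratio above 1 and 0 were past 2-fold. Levels of the LXR genes summed to 1514 and 1089 CPM, with 3 of 11 above 1. Mylip made up much of that sum, at 753 CPM with saline and 427 with Ter119 (ratio 0.567, 0.517 to 0.622). Scd2, at 37.2 and 85.0 CPM (ratio 2.28, 1.72 to 3.045), and Abcg3, at 15.5 and 33.05 CPM (ratio 2.13, 1.35 to 3.39), were the 2 LXR genes past 2-fold, both higher, while Scd1 was at 76.25 and 39.8 CPM (ratio 0.522, 0.382 to 0.705). The opposite placing of the desaturase genes was thus present in this class too. Kupffer markers, from cells with more of both transcripts, summed to 4022 CPM in saline and 5248 in Ter119 endothelial-like cells. Their part in this placing was not tested.

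Dendritic-like cells, 90 and 217 in number, had the highest Srebf2 levels of the gated classes, at 117 CPM with saline and 66.9 with Ter119 (ratio 0.574, 0.382 to 0.844). B-like cells came next in the order, with intervals that overlap those of the dendritic-like cells. Fdps in dendritic-like cells was at 40.8 and 52.4 CPM and Sqle at 21.0 and 16.3 CPM, both with intervals covering 1 for the ratio. Abca1 was at 16.3 CPM from 14 UMIs and at 39.8 CPM from 22 UMIs (ratio 2.44, 1.19 to 5.15). The Kupffer markers, from cells with far more Abca1, summed to 2045 CPM in saline and 3458 in Ter119 dendritic-like cells, and their part in this ratio was not tested. Scd2 was at 29.15 and 65.1 CPM (ratio 2.23, 1.30 to 3.88), also higher in Ter119. Kupffer-like cells have more Scd2 as well, and the part of their RNA in this ratio was not tested either.

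Neutrophil-like cells, 223 and 558 in number, had Scd2 at 13.5 CPM from 7 UMIs in saline and 51.8 CPM from 67 UMIs in Ter119 (ratio 3.835, 1.76 to 9.90). Scd1 was at 82.9 and 23.95 CPM (ratio 0.289, 0.176 to 0.469), Abca1 at 118 and 39.4 CPM (ratio 0.335, 0.226 to 0.494) and Soat1 at 191 and 93.5 CPM (ratio 0.490, 0.372 to 0.645). Free RNA from Kupffer cells can add to such levels, and the Kupffer markers summed to 6157 CPM with saline and 3577 with Ter119 neutrophil-like cells, with 10 of 11 higher in saline. Its part in the neutrophil-like ratios was not tested. The neutrophil markers themselves summed to 130900 CPM with saline and 324100 with Ter119 in this class, with 4 of 10 higher in saline. Monocyte markers there summed to 642 and 7092 CPM, and cell cycle markers to 30.85 and 804 CPM. No median of all genes was computed for this class. The part of these differences in the neutrophil-like ratios was not tested either. In the monocyte-like and endothelial-like cells the Kupffer markers were at 3060 and 4250 CPM and at 4022 and 5248 CPM, higher in Ter119 in both. Their part in the ratios of these classes was not tested. Hepatocyte markers were higher in saline in all 7 gated classes, from 765 to 2224 CPM in saline and from 202 to 627 CPM in Ter119, and their part in the ratios of the classes other than Kupffer-like was not tested.

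In saline, Kupffer-like cells had the highest LXR sum of the 7 gated classes, 2541 CPM against 1514 in endothelial-like cells, the next in order. Their synthesis sum in saline, 272 CPM, was above that of neutrophil-like cells at 226 and below those of the other 5 classes, at 352 to 504 CPM. In Ter119 it was the highest of the 7, at 444 CPM, followed by dendritic-like cells at 414 CPM. No counting interval was computed for these sums, so the order of classes with close sums is not settled. The highest Abca1 level of the 7 gated classes was that of the Kupffer-like cells in both samples, at 534 and 301 CPM against 172 and 160 CPM in endothelial-like cells, the next in order, with intervals that do not overlap. For Mylip, endothelial-like cells came first in both samples. Scd2 in saline was highest in Kupffer-like cells at 70.5 CPM, followed by monocyte-like cells at 51.2 and B-like cells at 46.15 CPM from 14 UMIs, whose counting interval takes in the Kupffer-like level. Stard4 was highest in endothelial-like cells, at 96.6 and 87.0 CPM. B-like and T or NK-like cells, at most 103 cells in a sample, gave too few UMIs of most of the 28 genes for a ratio, and 22 and 19 of the genes respectively had under 5 UMIs in at least 1 of the samples.

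**Figure D4:**
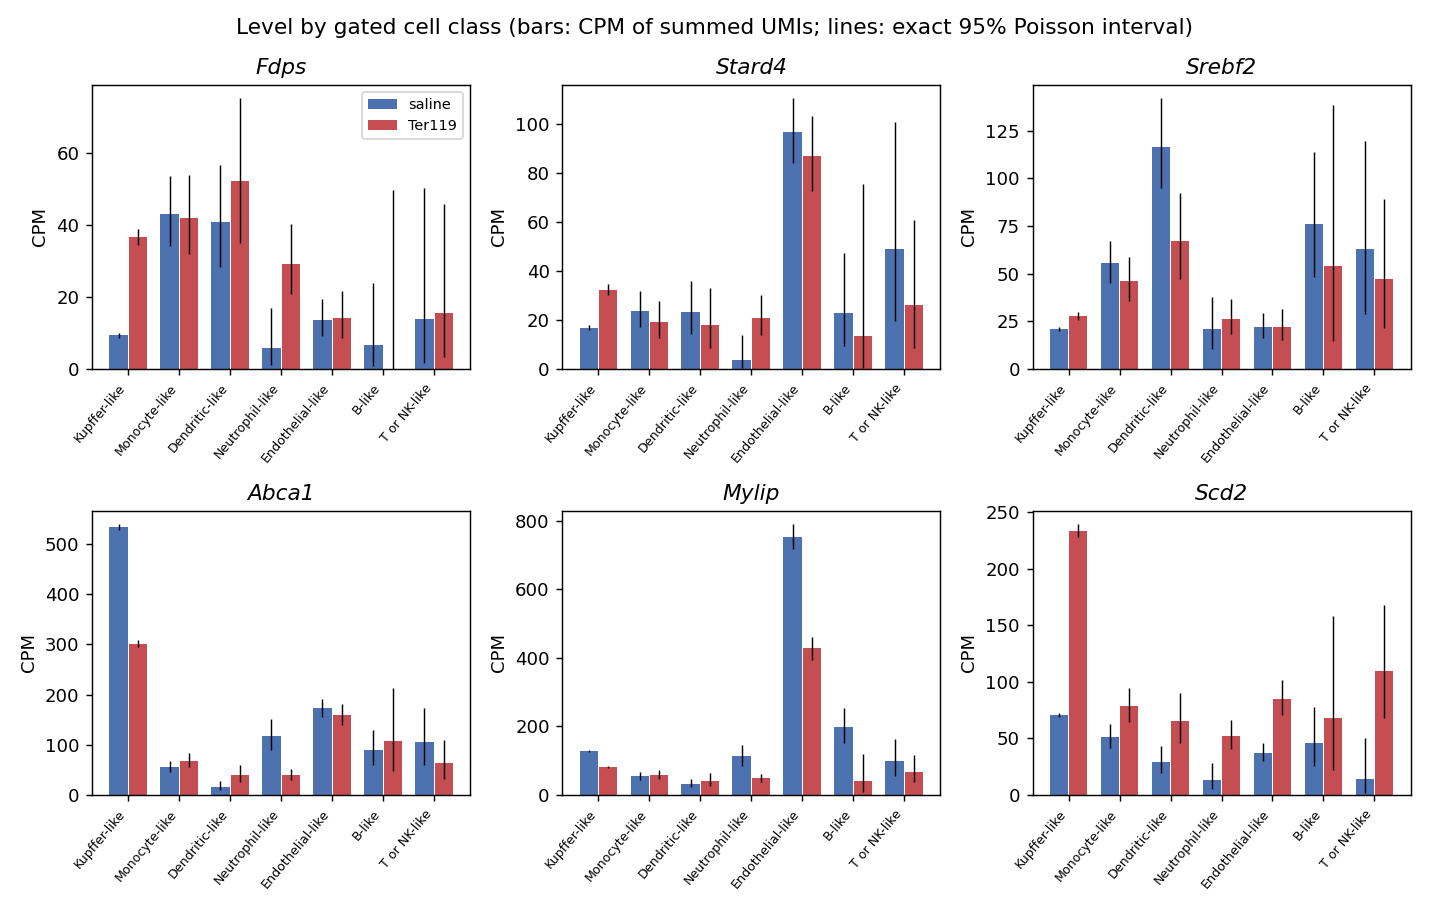
Level of 6 of the genes in CPM (vertical axes, starting at 0) in each of 7 gated cell classes (horizontal axes) for the saline sample (blue bars) and the Ter119 sample (red bars), with exact 95% Poisson intervals as lines. The Ter119 Fdps level in Kupffer-like cells of 36.7 CPM reaches the range of the monocyte-like cells, and Scd2 at 233.5 CPM has no equal in the other classes.

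The other genes of these pathways, taken from lists that do not contain the 28, were read in Kupffer-like cells in the same way. On the synthesis and SREBP2 side, 18 of 22 measured genes had a mean of at least 10 CPM, of which 2 passed 2-fold on the higher side, where 3.32% of all genes did, and 1 on the lower, where 8.48% did, with a median log2 ratio of 0.12 against -0.25 for all genes. Pmvk, the phosphomevalonate kinase between Mvk and Mvd, was one of the higher ones, at 13.4 and 27.2 CPM (ratio 2.025, 1.84 to 2.23). The lower one was Acat1, a mitochondrial thiolase of ketone and isoleucine metabolism, at 74.1 and 31.7 CPM (ratio 0.4275, 0.3975 to 0.459). The median of this wider list was thus nearer to that of all genes than the 28 genes' own synthesis group.

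On the LXR, efflux and lipogenesis side, 21 of 28 listed genes had a mean of at least 10 CPM, 0 passed 2-fold on the higher side and 5 on the lower, beside 3.32% and 8.48% of all genes, with a median log2 ratio of -0.63 against -0.25 for all genes. Apoc1, an apolipoprotein made by macrophages and liver under LXR control, was at 3013 and 93.6 CPM, 32.2 times lower in Ter119. Hepatocyte markers in these Kupffer-like cells summed to 2224 CPM with saline and 349 with Ter119, and their part in the Apoc1 ratio was not tested. Smpdl3a, a phosphodiesterase that LXR induces, was at 896 and 442 CPM (ratio 0.493, 0.484 to 0.503), and Cyp27a1, which makes an oxysterol ligand of LXR, at 34.5 and 12.9 CPM (ratio 0.375, 0.335 to 0.419). The last 2 were Abca9, a transporter related to Abca1, at 58.7 and 18.2 CPM (ratio 0.310, 0.282 to 0.340), and Lpcat2, a lysophospholipid acyltransferase, at 159 and 74.3 CPM (ratio 0.469, 0.447 to 0.491). None of these 5 was among the 28 genes, and no gene of this wider list had a ratio like that of Scd2.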

How the data were processed

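The authors deposited raw UMI counts, as 1 matrix of genes by barcodes for each sample, and per the file headers the writing software was Cell Ranger 6.0.2. The submitters' processing notes name GRCm38.p6, DESeq2 1.26.0, Seurat 3.2.3, Scanpy 1.7.0 and Cell Ranger 4.0.0. For the step that split barcodes by hashtag, the sources used here give no method, and hashtag counts were not analysed here. From the counts, cells were kept if they had 1000 or more UMIs, 500 or more genes and a mitochondrial share of 15% or less. Per 10000 UMIs other than hemoglobin, a class needed marker UMIs of at least 100 (Kupffer and neutrophil), 30 (monocyte), 8 (dendritic), 50 (endothelial), 25 (B) or 12 (T or NK). Barcodes past more than 1 limit (506 saline, 1303 Ter119) or none (145 and 941) were left out, and no doublet caller was run. The limits were set after the marker scores were seen.

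Counts were summed per class and sample and given as CPM. Ratios have exact conditional binomial 95% intervals and levels exact Poisson 95% intervals, with PCR and variation between cells and mice not covered. Ratios needed at least 5 UMIs in each sample, and group medians and counts take every gene with a UMI in both. The ratio and its interval were tried on counts simulated from the saline Kupffer-like sums with set fold changes. That simulation held counting error only, so it cannot show how the comparison holds over cells, mice or libraries. The genes, lists and motifs and the split by Gpnmb were chosen with earlier results of these data known. All 28 genes are named, and of the other pathway genes those past 2-fold with a mean of at least 20 CPM, of which 1 is not reported here. Alternatives were 10 chosen at the outset and 2 added after seeing the data. Clusters were built with scanpy 1.11.5 and leidenalg 0.10.2 on 2000 variable genes, with 30 components, 15 neighbours and resolution 1.0. The 28 genes, the other pathway genes and the mitochondrial genes were left out beforehand. TMM factors came from edgeR 4.0.16 in R 4.3.3, and sums and intervals from pandas 2.3.3, scipy 1.17.1 and numpy 2.4.6 under python 3.11.15. Gene positions are from GENCODE on GRCm38 by gene identifier.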

Additional observations from a re-analysis of the deposited data

Results flagged for a closer look

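These ratios of Ter119 over saline lay on the opposite side of 1 from the Kupffer-like ratio, with both counting intervals clear of 1. With 1 mouse per group the difference between classes was not tested over mice. In monocyte-like cells this held for Hmgcs1 at 0.671 (95% interval 0.4835 to 0.9235, Kupffer-like 1.24), Idi1 at 0.355 (0.219 to 0.557, Kupffer-like 1.32), Cyp51 at 0.696 (0.480 to 0.998, Kupffer-like 2.47) and Msmo1 at 0.515 (0.346 to 0.752, Kupffer-like 2.20). Idi1, the isomerase of the isoprenoid units, was on the lower side in endothelial-like cells as well, at 0.527 (0.290 to 0.915). In neutrophil-like cells the sterol desaturase gene Sc5d was at 0.214 (0.109 to 0.405, Kupffer-like 1.11), from 30 UMIs in saline and 16 in Ter119. The neutrophil markers of this class summed to 130900 CPM in saline and 324100 in Ter119, and the part of this difference in the Sc5d ratio was not tested. In dendritic-like cells Srebf2 was at 0.574 (0.382 to 0.844, Kupffer-like 1.33) and Abca1 at 2.44 (1.19 to 5.15, Kupffer-like 0.564), the only one of these on the higher side. Kupffer markers summed to 2045 CPM in saline and 3458 in Ter119 dendritic-like cells, and their part in the Abca1 ratio was not tested.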

How the results depend on the processing

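No paired analysis was possible because each group holds 1 sample, which also means that no replicate could be left out. The main median log2 ratios in Kupffer-like cells were 0.80 for the synthesis group and -0.43 for the LXR group, and neither changed sign in any of 12 alternatives, 2 of which were chosen after seeing the data. The synthesis median was 1.05 with TMM scaling, 1.07 with median-of-ratios factors, 0.89 with a total that leaves out hemoglobin, mitochondrial and ribosomal protein genes, 0.97 with a stricter marker gate of 200 and 0.98 among cells with at most 10 hepatocyte marker UMIs per 10000. The LXR median was -0.18 with TMM scaling, -0.16 with median-of-ratios factors, -0.34 with that reduced total, -0.47 with at most 5% mitochondrial UMIs, -0.40 with the stricter gate, -0.55 with hemoglobin-rich cells included and -0.47 with cells thinned to 1000 UMIs. The cause of these shifts was not tested. Among genes with a mean of at least 10 CPM, 4 of 11 synthesis genes were at least 2-fold higher, against 7 of 17 without that limit, as fewer genes are counted. Depth limits the classes other than Kupffer-like, where most intervals for single genes cover 1.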
